A study of Mus musculus with 39 samples.

Results

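The members described here are the variable (V) gene segments of the alpha and beta chains of the mouse T-cell receptor. They were chosen by name: a gene row entered where its symbol began with Trav or Trbv and where its level was above 0 in at least 1 library of either of 2 tables. The rule matched 125 of the 28023 gene rows and left 124 members, 103 alpha (Trav) and 21 beta (Trbv). The row left out was Trbv10, an annotated pseudogene at 0 in all 39 libraries.

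All libraries came from C57BL/6 mice of wild-type genotype that carried MCA-205 fibrosarcoma tumours under the skin. The mice had received a faecal transplant of volunteers' stool 2 weeks before tumour cells were injected. The stool had been exposed for 6 days either to the antibiotic CZA alone or to CZA together with DAV132, a colon-targeted adsorbent. In each transplant arm, mice were given 4 intraperitoneal injections, every 3 days, of an antibody to the checkpoint receptor PD-1 (250 µg) or of an isotype control, starting at a tumour size of 25 to 35 mm2. This gave 4 groups that all shared the transplant and the tumour: CZA isotype, CZA anti-PD-1, CZA+DAV132 isotype and CZA+DAV132 anti-PD-1. The first set held 19 libraries labelled as bulk tumour, 5 per group and 4 for CZA+DAV132 with isotype. The second set held 20 libraries of sorted CD8+ T cells, 5 per group, from a repeat of the experiment with the same transplant material. No label ties a library to a mouse of its own, so p-values here measure the spread between libraries, which may be partly technical. The arms differ in the stool they received, and in the tumour set also in the series of library names, so an effect of DAV132 cannot be told apart from these.

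The T-cell receptor of most T cells pairs an alpha with a beta chain. Each developing T cell in the thymus joins 1 V segment to a joining (J) segment, with a diversity (D) segment between them in the beta chain, and then transcribes that V segment ahead of a constant region. The V segment encodes the first and second loops that contact the peptide and its presenting molecule, and its 3′ end supplies the first residues of the third loop, CDR3. The share of transcripts from each V segment therefore reflects which V segments the receptors of a T-cell population use. A population dominated by a few clones shows a few segments at high shares. A share gives neither the whole CDR3 nor the paired chain, so a segment at a high share is not by itself shown to be a clone. The mouse alpha locus holds large duplicated stretches, and copies in them are marked d and n in the symbols (Trav8d-2, Trav16n).

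In the GENCODE M21 annotation of GRCm38, the 103 Trav members lay on chromosome 14 between 52427928 and 53876752, all on the plus strand, in 21 subgroups of related sequence. The 21 Trbv members lay on chromosome 6 between 40891229 and 41558452, 20 on the plus strand and Trbv31 on the minus strand, in 18 subgroups. Of the Trav members, 98 were annotated as V genes and 5 as pseudogenes. The V exons below are those of the segments on which the results turn. Each is read from the annotated transcript on the plus strand, and capitals run from the last in-frame cysteine codon (TGT or TGC), the start of the CDR3 coding part, to the 3′ end of the exon.

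The exons of the 2 beta segments used most on average in both sets, Trbv12-2 (chr6:41119072-41119364) and Trbv13-2 (chr6:41121539-41121832), are given whole.
Trbv12-2: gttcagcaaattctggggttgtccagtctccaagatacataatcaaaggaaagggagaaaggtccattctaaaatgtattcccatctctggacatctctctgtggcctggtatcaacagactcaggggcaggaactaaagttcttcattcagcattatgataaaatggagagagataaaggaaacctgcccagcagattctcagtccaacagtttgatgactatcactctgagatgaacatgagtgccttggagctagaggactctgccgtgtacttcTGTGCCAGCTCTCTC
Trbv13-2: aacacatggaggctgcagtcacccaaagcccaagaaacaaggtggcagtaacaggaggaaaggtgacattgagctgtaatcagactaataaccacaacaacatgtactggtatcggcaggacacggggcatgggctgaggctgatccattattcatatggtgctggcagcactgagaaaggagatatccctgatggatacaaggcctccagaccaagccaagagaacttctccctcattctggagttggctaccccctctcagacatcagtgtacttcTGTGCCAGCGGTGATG

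The last 60 bases of the exon show how alike the beta segments of 1 subgroup are and where other subgroups differ: Trbv12-1 (chr6:41114008-41114067), Trbv13-1 (chr6:41116409-41116468), Trbv13-3 (chr6:41130526-41130585), Trbv16 (chr6:41152171-41152230) and Trbv2 (chr6:41047936-41047995).
Trbv12-1: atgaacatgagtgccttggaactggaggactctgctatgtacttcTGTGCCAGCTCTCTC
Trbv13-1: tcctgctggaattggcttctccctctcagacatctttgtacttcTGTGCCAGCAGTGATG
Trbv13-3: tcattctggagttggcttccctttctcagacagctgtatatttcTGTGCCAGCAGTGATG
Trbv16: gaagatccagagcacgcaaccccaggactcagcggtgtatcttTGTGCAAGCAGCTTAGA
Trbv2: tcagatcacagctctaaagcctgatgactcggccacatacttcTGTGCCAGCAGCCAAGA

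The same 60-base stretch of the alpha exons shows a segment that differs from its duplicate (Trav16 and Trav16n), 2 copies that are the same (Trav3d-3 and Trav3n-3), the alpha segment most used in sorted cells (Trav8d-2), a segment that fell in 1 comparison (Trav7-4), the top segment of 2 libraries (Trav14n-3) and the segment of invariant NKT cells (Trav11). They lie at chr14:53743646-53743705, chr14:53351562-53351621, chr14:52972979-52973038, chr14:53284116-53284175, chr14:53042832-53042891, chr14:53461679-53461738, chr14:53370516-53370575 and chr14:53519800-53519859 in the order below.
Trav16: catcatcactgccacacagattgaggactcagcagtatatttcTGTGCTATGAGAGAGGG
Trav16n: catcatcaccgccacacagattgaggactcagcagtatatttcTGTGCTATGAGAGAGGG
Trav3d-3: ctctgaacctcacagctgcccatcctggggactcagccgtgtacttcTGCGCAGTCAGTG
Trav3n-3: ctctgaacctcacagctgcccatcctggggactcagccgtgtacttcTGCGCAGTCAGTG
Trav8d-2: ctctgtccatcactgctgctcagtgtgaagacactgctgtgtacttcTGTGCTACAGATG
Trav7-4: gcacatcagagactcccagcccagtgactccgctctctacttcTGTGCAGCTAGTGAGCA
Trav14n-3: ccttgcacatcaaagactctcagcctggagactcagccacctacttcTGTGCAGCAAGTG
Trav11: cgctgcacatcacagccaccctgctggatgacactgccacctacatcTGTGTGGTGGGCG

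Likeness between segments limits what a level of 1 segment means, because short reads were assigned by matching them to transcripts. Of the 103 Trav members, 32 had no 31-base word of their own in the annotated V sequences, Trav11 among them, and the median Trav segment had 22.99% of its words to itself. The Trbv members were more distinct, with a median of 100% and a lowest value of 21.3%. Trbv12-1 and Trbv12-2 were 89.1% identical over the V exon, Trbv13-2 and Trbv13-3 91.8%, and Trav16 and Trav16n 97.7%. In 11 pairs of d and n copies both rows carried the same level in all 39 libraries (within 0.1%), so the 124 members held 113 distinct values. Levels of single Trav copies are uncertain for this reason, and sums over a chain or a subgroup are affected less.

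Levels were in the unit TPM, a share of the transcripts of a library scaled for transcript length, and the number of reads behind a value is unknown. The sorted cells carried the T-cell and CD8 markers: Cd8a ranged from 86.7 to 402 TPM and Cd4 from 0.418 to 2.32 TPM. In the other set, labelled as bulk tumour, 8 T-cell markers summed to 2664 to 6493 TPM, while 5 fibroblast and sarcoma markers summed to 6.35 to 897 TPM, so T-cell transcripts far outweighed those of the labelled tumour. Cd8a there ranged from 141 to 423 TPM and Cd4 from 0.116 to 6.58 TPM. In 3 libraries, all of the anti-PD-1 groups with CZA+DAV132, 2 repeat-derived entries took 18.0% (CD8-16), 38.98% (CD8-19) and 35.8% (T026) of all TPM, which lowers every other TPM in them. The entries were not confined to these libraries. They took 11.6% in CD8-17, 9.68% in CD8-8 of the CZA anti-PD-1 group and 9.53% in CD8-1 of the CZA isotype group. In the tumour set they took 10.0% in T985 of the CZA isotype group and at most 0.268% in the libraries other than T985 and T026. Only CD8-16, CD8-19 and T026 are called repeat-rich here, and the main values that rest on them are given with and without them below.

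In sorted CD8+ T cells the repertoire was broad, with most segments present in most libraries. Between 38 and 99 Trav and between 18 and 21 Trbv members were above 0 in a library, and 17 Trav and 18 Trbv were above 0 in every library. The tumour repertoire was sparse: 6 to 40 Trav and 3 to 18 Trbv were above 0 in a library, no segment was above 0 in every library, and 15 Trav were at 0 in all 19. Since the depth is unknown, a segment listed at 0 may have been below detection. Genes of any kind were also detected less often in the tumour set. Between 11885 and 14897 were above 0 in its libraries other than T026 (17184), against 14915 to 19236 in sorted libraries. The part of this in the sparse tumour usage was not tested.

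Usage of a segment is given as its share of the summed TPM of its chain. Among the sorted cells the 5 most used beta segments were Trbv12-2 at 13.3% ± 6.01 (SD, n = 20 libraries), Trbv13-2 at 11.2% ± 4.52, Trbv16 at 9.12% ± 4.65, Trbv13-1 at 7.50% ± 4.79 and Trbv5 at 7.47% ± 3.28. Together they made up 48.5% of beta usage. Trbv12-2 ranged from 4.37% to 27.3% (CD8-18), a wider range than the gaps between these means, so the order of neighbours is not resolved. Summed over subgroups, the 3 Trbv13 segments held 22.8% ± 6.08 and the 2 Trbv12 segments 17.4% ± 6.36 of beta transcripts.

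Alpha usage was spread over more segments. The 5 most used were Trav8d-2 at 5.95% ± 4.604 (SD, n = 20), Trav16 at 4.98% ± 2.85, Trav16n at 4.22% ± 1.94, Trav8n-2 at 3.78% ± 1.30 and Trav12-2 at 3.68% ± 3.57, together 22.6%. Trav8d-2 reached 19.2% in CD8-19 and was as low as 0.683% elsewhere. Trav16 was highest in CD8-16 at 13.7%. Both of these libraries are among the repeat-rich ones. By subgroup, the 5 Trav8 segments held 12.4% ± 5.87 of alpha transcripts and the 15 Trav6 segments 12.2% ± 3.26.

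Of the 5 beta segments used most in sorted cells, 4 were also among the 5 of the tumour set, where Trbv2 stood in place of Trbv5. Trbv12-2 had a mean share of 14.3% ± 10.7 (SD, n = 19) and was above 0 in 17 libraries. Trbv13-2 had 11.8% ± 14.9, Trbv2 10.4% ± 12.5, Trbv16 8.34% ± 9.59 and Trbv13-1 7.99% ± 9.88. Their shares differed widely between libraries. For alpha, Trav16n had 6.08% ± 7.41, Trav3-3 4.35% ± 8.07, Trav7-6 3.95% ± 8.80, Trav8d-2 3.54% ± 8.21 and Trav12-2 3.28% ± 5.90, and these were above 0 in 11, 9, 6, 5 and 8 of 19 libraries.

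Mean shares in the sets were alike in order. Across the 21 Trbv segments Spearman's rho between the sets was 0.77 and Pearson's r 0.83, and 4 of the 5 most used segments were shared. Across the 103 Trav segments rho was 0.58 and r 0.63, and 3 of the 5 were shared. These correlations are across segments, which share libraries and sequence and are not replicates.

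**Figure D1:**
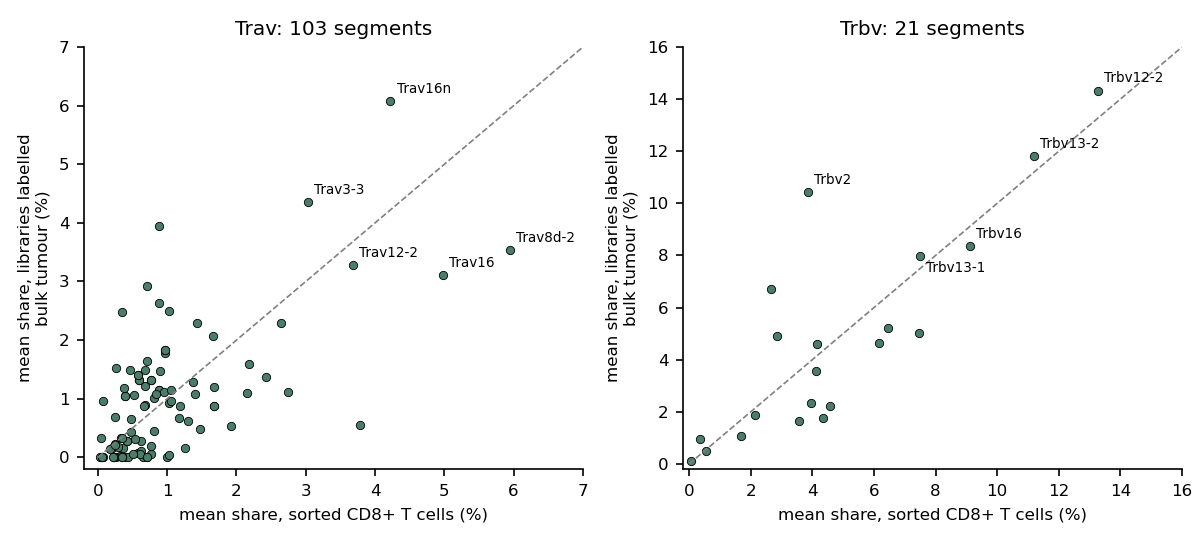
Mean usage share (percent of the chain's summed TPM) of each V segment in the sorted CD8+ libraries (n = 20) against the libraries labelled bulk tumour (n = 19), for alpha and for beta segments. Each point is a segment and the dashed line is equality. Trbv12-2 and Trbv13-2 lead in both sets.

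The segment that led a library differed from library to library. Among the sorted cells 13 different Trav and 7 different Trbv segments were the most used of some library. Trbv12-2 led 7 libraries, with 13.0% in CD8-1, 14.2% in CD8-3, 17.1% in CD8-6, 25.6% in CD8-9, 18.0% in CD8-10, 17.7% in CD8-14 and 27.3% in CD8-18. Trbv13-2 led 5, with 12.9% in CD8-2, 26.6% in CD8-7, 12.8% in CD8-12, 10.8% in CD8-13 and 18.6% in CD8-20. Trbv16 led CD8-5 (18.7%), CD8-16 (19.0%) and CD8-17 (17.9%), and Trbv13-1 led CD8-4 (11.4%) and CD8-11 (24.8%). The other leaders were Trbv3 in CD8-8 (13.9%), Trbv17 in CD8-15 (11.7%) and Trbv1 in CD8-19 (18.9%). These leaders came from all 4 groups, and a share above 20% was seen in 4 libraries.

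On the alpha side Trav8d-2 led 6 sorted libraries, at 5.57% in CD8-1, 7.82% in CD8-2, 7.80% in CD8-6, 6.69% in CD8-14, 19.2% in CD8-19 and 13.2% in CD8-20. Trav16 led CD8-8 (6.08%) and CD8-16 (13.7%), Trav7-2 led CD8-4 (5.37%) and CD8-17 (5.53%), and the remaining 10 libraries had a leader each of its own. Among those, Trav14n-3 reached 24.9% in CD8-9, the only sorted library with an alpha segment above 20%. Trav7d-4 reached 15.9% in CD8-5, Trav15-1-dv6-1 14.9% in CD8-7, Trav6-3 13.9% in CD8-11, Trav5-4 12.0% in CD8-10 and Trav10 10.6% in CD8-18. The leaders were lower in CD8-13 (Trav14-2, 7.84%), CD8-12 (Trav8n-2, 5.41%), CD8-15 (Trav7-4, 5.40%) and CD8-3 (Trav16n, 4.75%).

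In the tumour set the leaders were far more dominant: an alpha segment held over 20% in 12 of 19 libraries and a beta segment in 15 of 19. Beta leaders were Trbv2 in T983 (42.7%), T982 (22.2%) and T024 (34.4%), and Trbv12-2 in T986 (34.9%), T991 (37.8%), T990 (29.2%) and T030 (20.3%). Trbv13-1 led T989 (31.6%), T022 (32.7%) and T026 (15.2%), and Trbv13-2 led T023 (63.8%) and T029 (30.8%). Trbv26 led T987 (29.6%) and T021 (19.2%), and Trbv19 led T984 (26.99%) and T028 (15.6%). Trbv15 led T985 (26.8%), Trbv16 led T988 (32.1%) and Trbv13-3 led T027 (15.8%). In all, 9 different beta segments and 15 different alpha segments led a tumour library.

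Alpha leaders in the tumour set were mostly different for each library. Trav6d-5 held 35.7% in T027, Trav6-5 33.7% in T989, Trav7-6 33.7% in T023 and 16.5% in T024, Trav8d-2 33.6% in T022 and 8.88% in T984, and Trav7-3 32.4% in T986. Trav3-3 held 31.9% in T985 and 15.8% in T028, Trav21-dv12 30.1% in T983, Trav7-4 23.7% in T987, Trav14n-3 23.4% in T982 and Trav9d-1 22.8% in T988. Trav16d-dv11 held 22.3% in T029, Trav14n-1 20.6% in T991, Trav16n 17.5% in T030 and 13.7% in T021, Trav4-4-dv10 14.0% in T990 and Trav12-2 14.0% in T026. Trav14n-1 is annotated with the same transcripts as Trav14d-1, which held 1.84% in T991, so the row that led there is uncertain. T986 stood apart because its Trav sum was 10.4 TPM against a Trbv sum of 620 TPM, so its alpha shares rest on little signal.

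**Figure D2:**
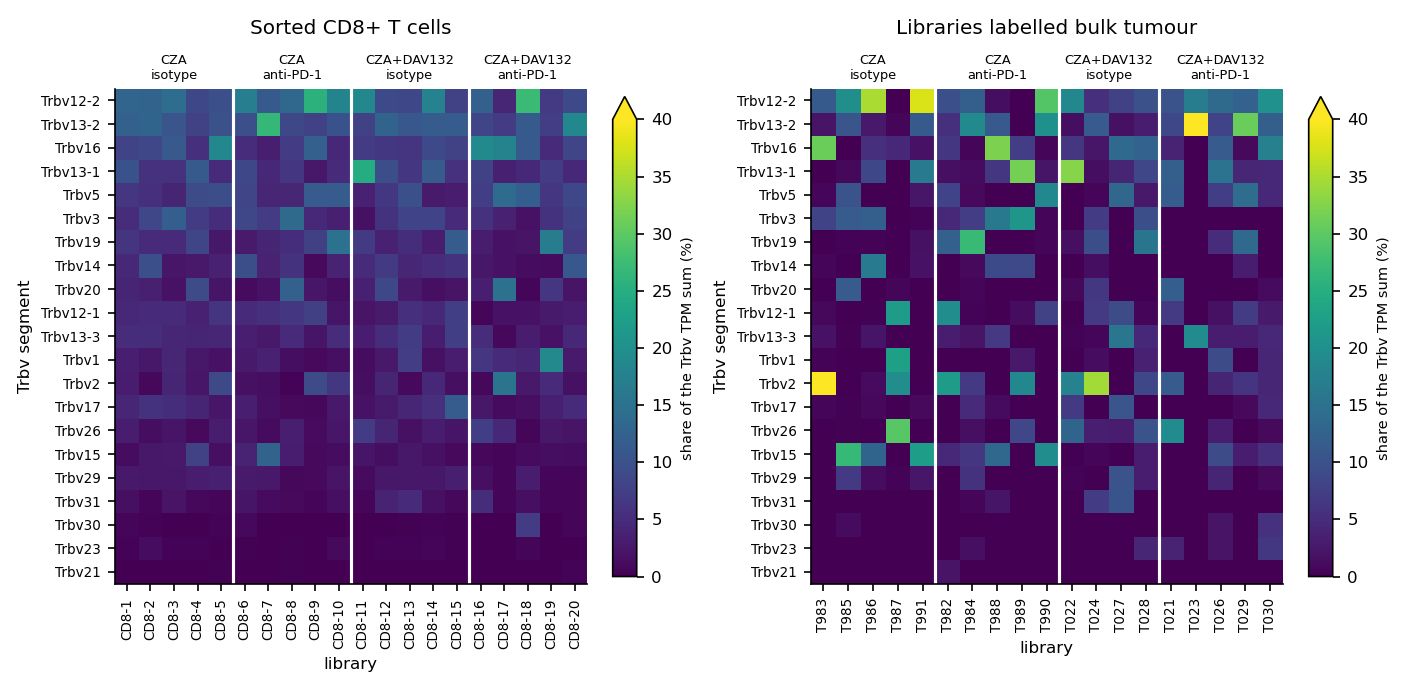
Share of each Trbv segment (percent of the summed Trbv TPM, colour scale capped at 40%) in every library, with libraries in columns ordered by set and group. The sorted CD8+ libraries show many moderate shares, and the tumour libraries show a few segments at high shares and many at 0.

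Usage was compared between pairs of libraries of the same group and of different groups. The part of usage that a pair of libraries had in common, summed over segments, had a median of 70.4% for beta within groups (40 pairs) and 70.1% between groups (150 pairs) in the sorted cells. For alpha the medians were 55.0% and 53.8%. Tumour libraries had 34.3% and 36.7% for beta (36 and 135 pairs) and 11.6% and 13.7% for alpha. Pairs share libraries, so these are descriptions and the differences were not tested.

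V segments also varied more within groups than most genes. The median within-group SD of log2(TPM + 1) was 1.09 for Trav and 1.06 for Trbv in the sorted cells, against 0.45 for all tested genes. For tumour libraries it was 1.36 and 1.91, against 0.84. For genes with a mean of 5 to 100 TPM alone, the SD was 1.10 and 1.07 against 0.45, and 2.04 and 1.97 against 0.90. These rest on 48 Trav and 16 Trbv in sorted cells. In the tumour set they rest on 15 Trbv and only 5 Trav.

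Segments known from T cells with semi-invariant receptors were read one by one. Trav1, used by mucosal-associated invariant T cells, was above 0 in 18 of 20 sorted libraries with a mean share of 0.656% and a highest share of 5.17% in CD8-16, and it was at 0 in the tumour set. Trav11 was above 0 in 13 sorted libraries, with a highest share of 1.63% in CD8-12, and in 2 tumour libraries, with a highest share of 7.75% in T982. Its near-copy Trav11d, 99.7% identical, was above 0 in 5 sorted libraries and in no tumour library. It held 11.1% of alpha usage (147 TPM) in CD8-9. With so few bases to tell Trav11 from Trav11d, these rows cannot be separated with confidence. Traj18 and Traj33, the joining segments that such receptors pair with Trav11 and Trav1, had medians of 460 and 125 TPM in sorted cells and 1879 and 293 TPM in tumour libraries. The Traj18 median in tumour libraries was above that of the alpha constant gene Trac (654 TPM). These levels can therefore not be read as amounts of such receptors.

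The summed level of all V segments was set against that of Cd3d, Cd3e and Cd3g, the CD3 subunits that every T-cell receptor needs to reach the surface, to scale for T-cell content. In sorted CD8+ cells this ratio was lowest in the anti-PD-1 group with CZA+DAV132. Its 5 libraries had 0.120, 0.242, 0.303, 0.295 and 0.343, a mean of 0.261 ± 0.087 (SD, n = 5). The CZA+DAV132 isotype libraries had 0.454, 0.499, 0.539, 0.492 and 0.687 (mean 0.534 ± 0.091). The groups did not overlap, and the ratio of means was 0.488. Without the 2 repeat-rich libraries the anti-PD-1 mean was 0.296 ± 0.051 (n = 3) and still did not overlap the isotype group. The libraries kept still held 11.6% (CD8-17), 8.23% (CD8-18) and 7.72% (CD8-20) of TPM in the repeat-derived entries. All were above the isotype libraries of that arm (1.56% to 5.04%), so leaving 2 out does not make the groups alike in this. The cause of the lower ratio was not tested. Bulk RNA does not tell fewer cells carrying a receptor from less receptor RNA per cell, and these need not be the only readings.

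In the CZA arm the sorted groups overlapped. The isotype libraries had 0.370, 0.513, 0.890, 0.722 and 0.648 (mean 0.629 ± 0.199) and the anti-PD-1 libraries 0.676, 0.344, 0.259, 0.589 and 0.419 (mean 0.457 ± 0.173). The CZA+DAV132 anti-PD-1 group also overlapped the CZA anti-PD-1 group, with a log2 difference of means of -0.81. That difference was -0.41 with the constant genes in place of CD3, -0.56 without the repeat-rich libraries and -0.997 without CD8-8, where the groups narrowly separated.

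In the tumour set the ratio was lower under anti-PD-1 in both arms. The CZA isotype libraries had 0.202, 0.313, 0.244, 0.418 and 0.282 (mean 0.292 ± 0.082), and the CZA anti-PD-1 libraries 0.156, 0.0952, 0.122, 0.0401 and 0.0838 (mean 0.0994 ± 0.043). The CZA+DAV132 isotype libraries had 0.0851, 0.107, 0.154 and 0.116 (mean 0.116 ± 0.029, n = 4), and the anti-PD-1 libraries of that arm 0.0321, 0.0306, 0.0533, 0.0509 and 0.0477 (mean 0.0429 ± 0.011). Neither pair overlapped, with ratios of means of 0.341 and 0.371. Without the repeat-rich T026 the last group had 0.0403 ± 0.010 (n = 4), still without overlap. With Trac, Trbc1 and Trbc2 in place of the CD3 genes the CZA pair overlapped. The isotype groups of the arms did not overlap either, with CZA+DAV132 at 0.396 of CZA.

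Numerator and denominator moved differently by arm and set. In the CZA arm of the tumour set the CD3 sum was 3922 ± 439 TPM under anti-PD-1 and 2392 ± 129 TPM under isotype, without overlap, while the V sum was 384 ± 171 against 695 ± 183 TPM, with overlap. In the CZA+DAV132 arm of the tumour set the CD3 sums overlapped (3477 ± 1189 and 3294 ± 879 TPM) and the V sums did not (150 ± 62.5 and 364 ± 27.2 TPM). In sorted cells of the CZA+DAV132 arm the V sum was 898 ± 543 TPM under anti-PD-1 and 2346 ± 506 TPM under isotype, without overlap. The CD3 sum there was 3266 ± 1442 against 4393 ± 571 TPM, with overlap. Without the repeat-rich libraries the CD3 sum was 4311 ± 100.4 TPM and the V sum 1275 ± 217 TPM (n = 3), the V sum still below every isotype library.

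**Figure D3:**
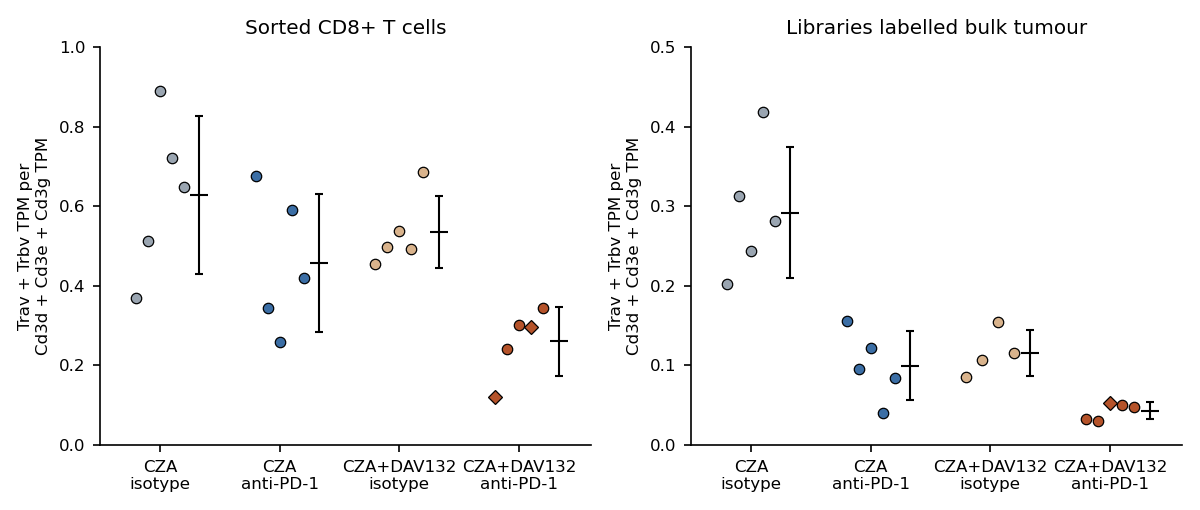
Summed V segment TPM divided by the summed TPM of Cd3d, Cd3e and Cd3g in each library, by group, for the sorted CD8+ set and the tumour set. Points are libraries, bars are mean ± SD (n = 5, and 4 for CZA+DAV132 isotype in the tumour set), and diamonds mark the 3 repeat-rich libraries; anti-PD-1 libraries sit below isotype libraries without overlap in 3 of the 4 pairs shown.

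Relative to the constant region of the same chain, the groups separated for beta and overlapped for alpha. Scaled to the beta constant genes Trbc1 and Trbc2, the Trbv sum in sorted cells of the CZA+DAV132 arm was 0.154 ± 0.042 under anti-PD-1 and 0.310 ± 0.061 under isotype, without overlap. Scaled to the alpha constant gene Trac, the Trav sum was 0.505 ± 0.245 and 0.452 ± 0.017, with overlap. CD8-16 was the highest there, and without the repeat-rich libraries the anti-PD-1 mean was 0.436 ± 0.019 (n = 3), so the order of the means turned. In TPM both chains were lower without overlap, the Trav sum at 384 ± 234 against 772 ± 75.3 TPM and the Trbv sum at 514 ± 315 against 1574 ± 435 TPM. The ratio of Trbv to Trav was 1.34 ± 0.207 and 2.01 ± 0.354, also without overlap. Without CD8-16 and CD8-19 the scaled Trbv value was 0.154 ± 0.022 and the ratio of Trbv to Trav 1.33 ± 0.227, both still without overlap.

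The same held on this scale for both arms of the tumour set. The Trbv sum per Trbc was 0.053 ± 0.036 under anti-PD-1 and 0.148 ± 0.045 under isotype in the CZA arm, and 0.0158 ± 0.0074 and 0.0613 ± 0.033 in the CZA+DAV132 arm. Neither pair overlapped, and without T026 the anti-PD-1 value of the latter was 0.0143 ± 0.0076 (n = 4). The Trav sum per Trac was 0.217 ± 0.047 and 0.240 ± 0.142 in the CZA arm, and 0.324 ± 0.223 and 0.196 ± 0.074 in the CZA+DAV132 arm, and both pairs overlapped. In the CZA arm of the sorted cells neither chain separated the groups, at 0.259 ± 0.121 and 0.378 ± 0.053 for Trbv per Trbc and 0.431 ± 0.048 and 0.475 ± 0.066 for Trav per Trac.

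Segment by segment, the comparison that called most members was anti-PD-1 against isotype in sorted cells of the CZA+DAV132 arm. Of 119 members tested there (99 Trav and 20 Trbv), 32 fell and none rose by limma (adjusted p at most 0.05, Benjamini-Hochberg over 12942 genes), 17 Trav and 15 Trbv. Over all genes tested, 19.4% were called lower in this comparison, against 26.9% of the members. By chain, 75.0% of Trbv and 17.2% of Trav were called lower, and the difference between the chains was not tested. The median log2 change was -0.96 for the members, -2.08 for Trbv and -0.83 for Trav, beside -0.34 for all genes. Because of shared values the 32 calls were 29 distinct ones. Of the 119 members, 106 had a negative and 13 a positive change.

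The scale bears on that comparison. Relative to CD3 the median change of all genes moved from -0.34 to 0.06 and that of the members from -0.96 to -0.72. Fitted relative to the CD3 sum, 18 members fell, 7 Trav and 11 Trbv, all of them among the 32, against a background of 9.18% of genes. Over all genes, 533 rose and 2509 fell in TPM, while 1187 rose and 1188 fell relative to CD3, and 1471 rose and 1828 fell after median-ratio scaling, where 19 members were called. With the repeat-rich libraries left out, 5 members were called lower, all among the 32 (Trav12-2, Trav7-4, Trbv12-1, Trbv13-1 and Trbv13-3). Over all genes 5.20% were called lower in that fit. The 5 are out of all members tested there, not out of the 32. Members were therefore not shown to fall more often than other genes. In that fit Trav6-2 rose, by 1.99 on the log2 scale (adjusted p = 0.036), against 4.24% of genes.

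Among the segments that fell, Trbv13-1 had the smallest p. Its CZA+DAV132 isotype libraries were at 391, 132, 87.7, 140 and 133 TPM and the anti-PD-1 libraries at 9.69, 19.8, 36.2, 18.7 and 36.6 TPM. Every anti-PD-1 library was below every isotype library, and the change was -2.76 ± 0.45 (log2, SE; limma adjusted p = 0.0040, and 0.0036 relative to CD3). The other members of its subgroup fell with it: Trbv13-3 changed by -2.63 ± 0.52 (limma adjusted p = 0.0061) and Trbv13-2 by -1.97 ± 0.55 (limma adjusted p = 0.016). Trbv13-3 went from 46.9, 73.3, 94.8, 36.5 and 172 TPM to 6.26, 4.38, 25.3, 5.02 and 37.8 TPM, where only the highest anti-PD-1 library reached into the isotype range. Trbv13-2 went from 122, 176, 148, 142 and 269 TPM to 10.5, 38.7, 93.3, 19.6 and 151 TPM, where again 1 library overlapped.

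The Trbv12 subgroup fell as well. Trbv12-1 was at 33.6, 39.8, 76.2, 56.2 and 171 TPM under isotype and at 0.900, 10.6, 16.2, 7.52 and 24.6 TPM under anti-PD-1, without overlap (-2.73 ± 0.59, limma adjusted p = 0.0077). Trbv12-2, the most used segment, was at 294, 124, 118, 217 and 179 TPM and at 15.3, 24.2, 224, 17.8 and 71.9 TPM (-2.08 ± 0.62, limma adjusted p = 0.021). CD8-18, in which Trbv12-2 held 27.3% of beta usage, was the library that overlapped. CD8-16, a repeat-rich library, was the lowest for Trbv12-1, Trbv12-2, Trbv13-1 and Trbv13-2.

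Further beta segments fell by similar amounts: Trbv14 by 2.81, Trbv29 by 2.64, Trbv17 by 2.61, Trbv31 by 2.31 and Trbv26 by 2.07 on the log2 scale (limma adjusted p = 0.0086, 0.0081, 0.0097, 0.010 and 0.0084). Those that did not pass were Trbv16 at -1.26 (limma adjusted p = 0.13), Trbv2 at -1.14 (0.41), Trbv5 at -0.87 (0.35), Trbv1 at -0.76 (0.31) and Trbv30 at 0.23 (0.89). The Trbv16 levels overlapped widely: its isotype libraries were at 112, 89.1, 84.3, 108 and 182 TPM and its anti-PD-1 libraries at 23.8, 98.8, 91.5, 13.1 and 66.9 TPM, with 2 of 5 inside the isotype range.

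Without the repeat-rich libraries Trbv13-1 (-2.33), Trbv13-3 (-2.07) and Trbv12-1 (-1.89) passed, with limma adjusted p = 0.019, 0.038 and 0.047. Trbv13-2 (-1.001) and Trbv12-2 (-1.25) did not, at 0.18 and 0.22. Trbv26, Trbv31, Trbv29, Trbv17 and Trbv14 did not pass either, at 0.055, 0.068, 0.072, 0.079 and 0.089.

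Among alpha segments Trav7-4 fell from 7.20, 15.6, 11.8, 12.1 and 47.4 TPM to 0.667, 6.52, 0, 0.514 and 5.32 TPM, without overlap (-2.63 ± 0.52, limma adjusted p = 0.0062). Trav14d-1, which has no sequence word of its own, fell from 14.6, 12.0, 14.1, 18.6 and 15.8 TPM to 0, 2.71, 7.69, 0 and 2.97 TPM (-2.59 ± 0.60, limma adjusted p = 0.0086). Trav14n-1, annotated with the same transcripts, overlapped between these groups, at 1.78 to 14.9 TPM under isotype and 0 to 3.13 TPM under anti-PD-1. Trav7-4 also passed without the repeat-rich libraries (-2.16, limma adjusted p = 0.038) and Trav14d-1 did not (-1.66, 0.089). In all, 5 members had no overlap between these groups and were lower under anti-PD-1: Trbv13-1, Trbv12-1, Trbv15, Trav7-4 and Trav14d-1. Over all genes 12.1% were lower without overlap. Relative to CD3 the 5 were Trbv13-1, Trbv12-1, Trbv15, Trbv26 and Trav14d-1, against 4.73% of genes. Trbv15 was at 36.2, 19.7, 36.2, 22.3 and 24.1 TPM under isotype and at 1.01, 4.23, 9.04, 3.96 and 11.1 TPM under anti-PD-1.

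**Figure D4:**
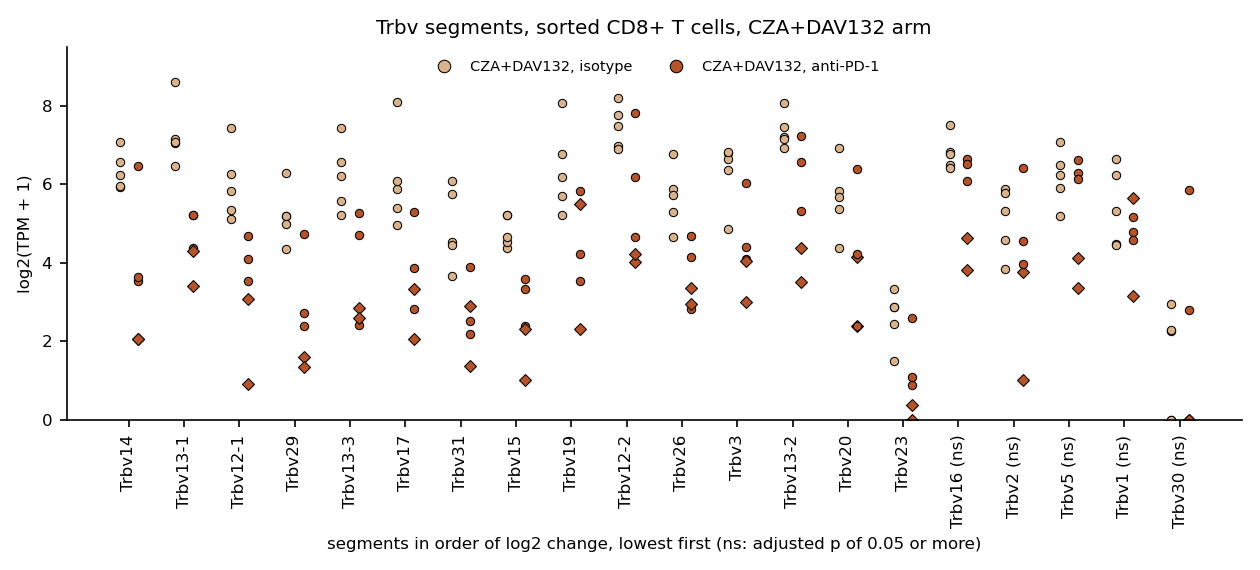
Level of each tested Trbv segment, as log2(TPM + 1), in the sorted CD8+ libraries of the CZA+DAV132 arm, isotype and anti-PD-1. Points are libraries, diamonds mark repeat-rich ones, and "ns" marks segments with an adjusted p above 0.05; Trbv13-1 and Trbv12-1 separate the groups and Trbv16 does not.

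In the CZA arm of the sorted cells no member was called by limma, and 0.0155% of all genes were called. An unadjusted p below 0.05 was found for 6 of 119 members (5.04%) and for 5.11% of all genes. The smallest p-values were those of Trav9n-1 (1.54, limma adjusted p = 0.40) and Trav13-4-dv7 (-2.12, limma adjusted p = 0.47). No member was without overlap, against 1.59% of genes. The difference between the arms in their response to anti-PD-1 was tested directly as an interaction. No member passed, and 0% of genes were called. An unadjusted p below 0.05 was found for 24 members (20.2%) and 15.7% of genes. The smallest p-values were those of Trav7-4 (-2.31) and Trbv13-1 (-1.90), both with a limma adjusted p of 0.29, so a larger response in the CZA+DAV132 arm was not shown.

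Between the arms under anti-PD-1, 1 member of 119 fell, Trav9n-1, against 0.0386% of genes. Trav9n-1 is an annotated pseudogene (chr14:53101801-53102265) with 39.5% of its words to itself. It was at 8.42, 13.8, 7.67, 1.83 and 5.64 TPM in the CZA anti-PD-1 group and at 1.07, 0, 1.04, 1.42 and 0 TPM in the anti-PD-1 group with CZA+DAV132, without overlap (-2.22 ± 0.38, limma adjusted p = 0.031). The median change of the members was -0.93 beside -0.40 for all genes, and 36 members (30.3%) had an unadjusted p below 0.05 beside 33.5% of genes. Members lower without overlap were Trav9n-1, Trav14n-1, Trav5-1, Trbv12-1 and Trbv15, against 2.58% of genes. Trav14d-1, annotated with the same transcripts as Trav14n-1, overlapped here, at 2.42 to 19.6 TPM in CZA and 0 to 7.69 TPM in CZA+DAV132. The separation of Trav14n-1 therefore cannot be tied to its own sequence. Relative to CD3 the members lower without overlap were Trav5-1, Trav7-4, Trbv12-1 and Trbv15, against 0.935% of genes. This comparison shares the CZA+DAV132 anti-PD-1 libraries with the preceding one, CD8-16 and CD8-19 among them, and with those left out no member was called.

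Between the arms under isotype no member and 0% of genes were called in the sorted cells. An unadjusted p below 0.05 was found for 10 members (8.403%) and 2.47% of genes. The smallest p-values were those of Trav9-1 (1.73, limma adjusted p = 1.00) and Trav4d-4 (-1.37). Trav9-1 was the only member without overlap, at 24.4, 8.15, 9.66, 5.89 and 7.36 TPM in CZA+DAV132 against 4.36, 4.63, 0, 2.31 and 2.57 TPM in CZA. Over all genes 0.309% were higher without overlap, and 0.085% relative to CD3.

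No member was called in any of the 5 limma comparisons of the tumour set, in which 62 members could be tested (43 Trav and 19 Trbv) among 13326 genes. Unadjusted p-values below 0.05 were found for 2 members for anti-PD-1 in the CZA arm, 3 in the CZA+DAV132 arm, 4 between the arms under anti-PD-1, 2 between them under isotype and 1 in the interaction, or 3.23%, 4.84%, 6.45%, 3.23% and 1.61% of members. The same shares over all genes were 13.1%, 10.3%, 7.58%, 10.9% and 10.3%. The shares of genes called after adjustment were 0.285%, 0.240%, 0%, 0.113% and 0.0450%. With sparse segments in every library, the within-group spread was large, as the values of Trbv12-2 show. It was at 31.5, 97.9, 216, 0 and 113 TPM in the CZA isotype group and at 31.4, 27.6, 3.63, 0 and 54.8 TPM in the CZA anti-PD-1 group. In the CZA+DAV132 arm it was at 43.0, 11.3, 24.9 and 21.2 TPM under isotype and at 3.74, 1.77, 8.44, 15.2 and 28.3 TPM under anti-PD-1.

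The members of smallest p in the tumour set did not pass. They were Trav9n-1 (1.25, limma adjusted p = 0.27) and Trav10n (1.47, 0.33) for anti-PD-1 in the CZA arm, and Trbv31 (-2.27, 0.25) and Trav6-2 (1.42, 0.29) in the CZA+DAV132 arm. Between the arms they were Trbv3 (-3.75, 0.34) and Trav6-2 (1.70, 0.34) under anti-PD-1, and Trbv31 (2.27, 0.29) and Trbv15 (-2.91, 0.46) under isotype. For the interaction they were Trbv31 (-3.06, 0.39) and Trav6-2 (1.42, 0.52). Trav6-2, Trav10n and Trbv31 reached 1 TPM in just enough libraries to be tested, most or all of them in groups where they were higher. Their p-values are therefore no support for a change. Trbv3 was at 0 in all 5 CZA+DAV132 anti-PD-1 libraries and at 15.0, 16.6, 40.8, 14.7 and 1.36 TPM in the CZA anti-PD-1 libraries, the only member without overlap there, against 1.91% of genes in TPM and 1.15% relative to CD3. No member was without overlap in TPM for anti-PD-1 in the CZA arm, against 2.39% of genes, for anti-PD-1 in the CZA+DAV132 arm, against 6.49%, or between the arms under isotype, against 2.24%. Relative to CD3, Trbv26 was lower without overlap in the CZA+DAV132 arm, against 5.43% of genes.

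Evenness of usage was measured as Pielou's index, the Shannon diversity of shares divided by its maximum over the 103 Trav or 21 Trbv members, so that 1 is equal use of all. Sorted CD8+ cells were more even than the tumour libraries in both chains. For Trbv the sorted groups had 0.893 ± 0.013 (CZA isotype), 0.841 ± 0.039 (CZA anti-PD-1), 0.879 ± 0.047 (CZA+DAV132 isotype) and 0.833 ± 0.029 (CZA+DAV132 anti-PD-1). The mean was lower under anti-PD-1 in both arms and both pairs overlapped. The overlap rested on single libraries: with CD8-11 left out the CZA+DAV132 groups did not overlap in either chain, and with CD8-5 or CD8-6 left out the CZA groups did not overlap in Trbv.

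Trav evenness in sorted cells, in the same order of groups, was 0.869 ± 0.030, 0.815 ± 0.065, 0.834 ± 0.062 and 0.773 ± 0.057. The lowest libraries were CD8-16 at 0.707, CD8-11 at 0.723 and CD8-9 at 0.725. Without CD8-16 and CD8-19 the last group had 0.809 ± 0.037 for Trav and 0.823 ± 0.037 for Trbv (n = 3), and overlapped the isotype group of its arm. In CD8-11 Trav6-3 and Trbv13-1 led, and in CD8-9 Trav14n-3 and Trbv12-2. All 4 compared pairs of groups overlapped in Trav.

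Tumour libraries had Trbv evenness of 0.570 ± 0.072, 0.651 ± 0.082, 0.723 ± 0.092 and 0.667 ± 0.215, and Trav evenness of 0.469 ± 0.083, 0.554 ± 0.108, 0.520 ± 0.116 and 0.577 ± 0.098, in the same order. All 4 compared pairs of groups overlapped in each chain. T023 was the least even for beta at 0.297, with only 3 Trbv segments above 0 and Trbv13-2 at 63.8%. Expressed as the number of equally used segments that would give the same diversity, beta usage was 13.9 ± 1.68 in sorted libraries (n = 20) and 7.73 ± 2.72 in tumour libraries (n = 19), and alpha usage 46.9 ± 12.2 and 13.0 ± 6.15. The tables were normalised separately, and their read depth is unknown, so the part of depth in this gap was not tested.

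**Figure D5:**
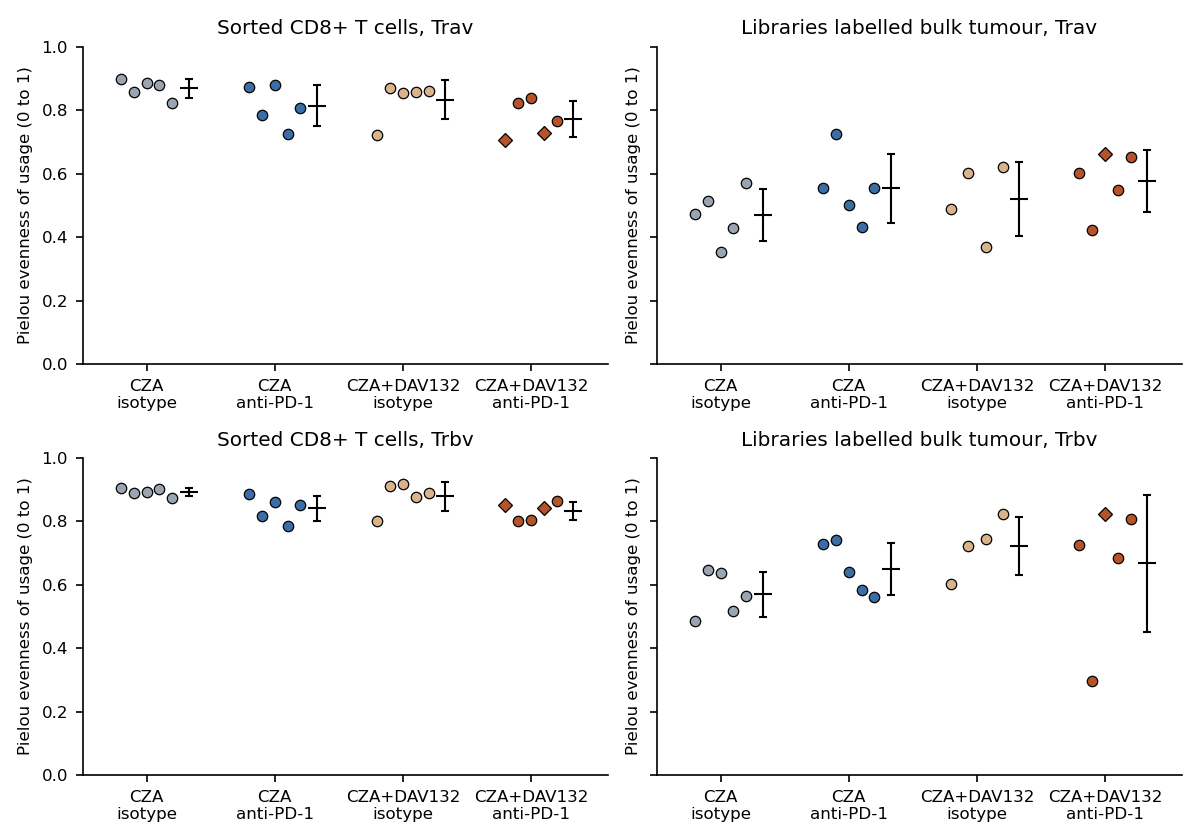
Pielou evenness of Trav and Trbv usage (no unit, 1 is equal use) in each library by group, for both sets. Points are libraries, bars are mean ± SD (n = 5, and 4 for CZA+DAV132 isotype in the tumour set) and diamonds mark the 3 repeat-rich libraries; sorted libraries lie higher than tumour libraries on average, and isotype and anti-PD-1 overlap within each arm.

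Other genes of the receptor and of its assembly were read in the same comparison, where 19.4% of all genes were called lower. Of 10 receptor complex genes in sorted cells of the CZA+DAV132 arm, 1 fell under anti-PD-1, Trbc1, by 1.12 on the log2 scale (limma adjusted p = 0.049). Trac was at -1.35 (0.061), Trbc2 at -0.75 (0.13), Cd3e at -0.81 (0.092), Cd3d at -0.59 (0.094), Cd3g at -0.50 (0.22) and Cd247, the zeta chain, at -0.34 (0.44), none of which passed. Cd8a was at -0.58 (0.18). Without the repeat-rich libraries Trbc1 was at -0.38 (limma adjusted p = 0.47) and no gene of the list passed. Among joining segments 8 of 14 Trbj fell (57.1%, median change -1.90) and 3 of 52 Traj (5.77%, median -0.74). The difference between the chains was not tested. The summed Trbj level was 841 ± 469 against 2182 ± 361 TPM, without overlap, and the Traj sum was 2952 ± 1975 against 2813 ± 445 TPM. Without the repeat-rich libraries no Trbj was called (median -0.96), no Traj fell and 1 rose, and the anti-PD-1 sums were 1154 ± 261 TPM for Trbj, still without overlap, and 4261 ± 1170 TPM for Traj.

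Of 13 genes of V(D)J recombination, 3 fell in that comparison, where 19.4% of all genes were called lower. They were Hmgb1 by 1.03, Hmgb2 by 0.89 and Xrcc6 by 0.79 on the log2 scale (limma adjusted p = 0.014, 0.028 and 0.030). With the repeat-rich libraries left out, only Hmgb2 of these 3 passed (-0.47, limma adjusted p = 0.031). The first 2 are abundant chromatin proteins and Xrcc6 encodes the Ku70 DNA repair protein. Rag1, whose product cuts at V segments, and Ptcra, the surrogate alpha chain of thymocytes, were at 0 in all sorted libraries. Rag2 was at most 0.239 TPM and Dntt, the enzyme that adds bases at the joins, at most 0.221 TPM. No gene of the receptor complex or V(D)J list was called in the other comparisons of either set.

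Markers of other cell types were read in the same groups. Variable segments of gamma and delta chains fell for 4 of 11 tested in the same comparison (36.4%, against 19.4% of all genes, median change -1.23), and for none without the repeat-rich libraries. The 8 T-cell markers summed to 2436 to 7161 TPM in the anti-PD-1 group with CZA+DAV132 and to 6370 to 8270 TPM under isotype. Of the 6 gamma-delta T-cell markers listed, 5 were measured, Trdc not being analysed here, and they summed to 33.1 to 197 TPM and to 224 to 422 TPM, and the gamma constant genes Tcrg-C1 and Tcrg-C2 fell by 2.04 and 1.49 on the log2 scale (limma adjusted p = 0.0088 and 0.014). With those libraries left out they were at -1.39 and -1.002 (limma adjusted p = 0.075 and 0.079). Tcrg-C4 fell by 2.76 (limma adjusted p = 0.0058) and passed without those libraries too (-1.96, limma adjusted p = 0.029). The 5 macrophage markers summed to 27.9 to 149.6 TPM under anti-PD-1 and 44.4 to 388 TPM under isotype, with medians of 79.8 and 279 TPM, and Cd68 fell by 1.35 on the log2 scale (limma adjusted p = 0.012). The 4 NK-cell markers summed to 6.75 to 17.7 TPM and 17.0 to 54.96 TPM, and the 4 erythroid markers to 56.8 to 424 TPM and 57.1 to 301 TPM, with medians of 151 and 77.9 TPM. Cd68 did not pass without the repeat-rich libraries (-0.94, limma adjusted p = 0.11). The repeat-derived share averaged 16.9% ± 13.0 in that anti-PD-1 group and 2.77% ± 1.54 under isotype. These groups did not overlap, with or without the repeat-rich libraries. The part of these in the lower V segment levels was not tested, beyond the fits relative to CD3 and without the repeat-rich libraries given above.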

How the data were processed

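RNA was measured in 20 libraries of sorted CD8+ T cells and 19 labelled bulk tumour. The authors deposited 1 table of TPM values per set, made with kallisto 0.45 and GRCm38 per the submitters' processing notes, whose annotation is not given in the sources used here. TPM keeps no read depth, so no counting error can be given. All 39 columns were matched to samples by name, and each table was analysed separately.

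Levels were tested with limma 3.58.1 in R 4.3.3 on log2(TPM + 1), 1 mean per group, trended empirical Bayes, for genes that reached 1 TPM in 4 or more libraries of a set. Fold changes on this scale understate those of low genes. Tests were two-sided, with Benjamini-Hochberg adjustment over all genes and a threshold of 0.05. The fit was tested on simulated data. Ratios and evenness were described without a test. Sequences were read from the GENCODE M21 annotation of GRCm38.

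The members and lists were chosen with earlier results of these data known. Named segments were, per set, the 5 Trav and 5 Trbv of highest mean share, the leading Trav and Trbv of each library, segments called in a comparison (the 10 of smallest p if more), the 2 of smallest p where none was called, and Trav1, Trav11 and Trav11d. Segments named beyond this rule, because groups did not overlap or as examples that did not pass, were chosen after their values were seen. Alternatives were another pseudocount, another filter, other scalings, only the groups compared, array weights, and leaving out libraries.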

Additional observations from a re-analysis of the deposited data

Results flagged for a closer look

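Among 104 groups of 4 or 5 libraries examined for 1 library far from the rest (a gap to its nearest neighbour above Dixon's 95% limit as a part of the range), 20 stood out. For normally spread values chance gives about 1 in 20, or 5.2. The segments examined were those of highest mean share in their set, which 1 library can set, and tumour shares were sparse. The count of 20 can therefore not be judged against 5.2. Shares are percent of the chain's summed TPM, and many of the tumour groups held zeros in the other libraries.

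In the sorted cells, CD8-11 had the lowest Trav evenness of its CZA+DAV132 isotype group at 0.723, with the next at 0.855. Trav12-2 was at 13.5% in CD8-19, a repeat-rich library, against at most 2.92% in the rest of its group, and Trbv13-2 was at 26.6% in CD8-7 against at most 10.1%.

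In the CZA isotype tumour group, T985 had Trav3-3 at 31.9% (next 6.66%). T987 had Trav7-6 at 14.4% (next 0%) and Trav12-2 at 18.6% (next 0.256%). T983 had Trav8d-2 at 10.8% (next 0%) and Trbv16 at 30.96% (next 5.49%). In the CZA anti-PD-1 group, T989 had Trav7-6 at 1.39% (next 0%) and Trbv13-1 at 31.6% (next 6.35%), T984 had Trav12-2 at 0.803% (next 0%) and T988 had Trbv16 at 32.1% (next 7.23%).

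In the CZA+DAV132 isotype tumour group, T024 had Trav16n at 2.77% (next 0%), Trav7-6 at 16.5% (next 0.625%) and Trbv13-2 at 11.4% (next 3.04%), and T022 had Trav8d-2 at 33.6% (next 0%). In the anti-PD-1 group with CZA+DAV132, T023 had a Trbv evenness of 0.297 (next 0.683) and Trav7-6 at 33.7% (next 8.39%), and T026, the repeat-rich library, had Trav3-3 at 2.35% (next 0%) and Trav8d-2 at 10.8% (next 0%).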

How the results depend on the processing

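Counts are of V segments called by limma. The share of all genes called moved between alternatives too. For anti-PD-1 in the CZA+DAV132 arm of the sorted cells it was 19.4% lower in the main fit. It was 9.18% relative to CD3 and 5.20% without the repeat-rich libraries. That share is not given here for every alternative, so the counts below do not set V segments against other genes. For anti-PD-1 in the CZA+DAV132 arm of the sorted cells 32 were called, and 16 without a filter on low levels, 19 after median-ratio scaling, 18 relative to CD3 and 6 without the repeat-rich libraries (5 lower, 1 higher). Leaving out 1 library gave 15 (without CD8-16) to 41 (without CD8-20), with 19 without CD8-15 and 19 without CD8-19. Between the arms under anti-PD-1 in sorted cells 1 was called, and 0 with only the groups compared, with a pseudocount of 0.1, without a filter, after median-ratio scaling, relative to CD3 and without the repeat-rich libraries, against 20 among genes with a mean of at least 5 TPM and 10 with array weights. Leaving out 1 library there gave 0 (without CD8-6, CD8-10 or CD8-16) to 28 (without CD8-20), with 22 without CD8-8 and 25 without CD8-18. In the tumour set array weights called 1 segment in the CZA+DAV132 arm (Trav6-2, higher) and 2 between the arms under anti-PD-1 (Trav6-2, higher, and Trbv3, lower). Between the tumour arms under isotype, leaving out 1 library gave 0 to 1 (Trbv26, without T987). The cause was not tested. The 5 other counts were 0 under every alternative run, leave-one-out fits included. Summing segments to subgroups moved the difference in Trbv evenness in the CZA+DAV132 arm of the sorted cells from -0.046 to -0.0053. The log2 difference of V per CD3 kept its sign in 98 of 98 alternatives and its overlap or lack of it in 95. With the constant genes in place of CD3, the CZA groups of the tumour set overlapped. Evenness kept its sign in 96 of 98 alternatives for Trav and 88 of 98 for Trbv. TPM holds no read depth, which limits what can be said of segments listed at 0. No paired analysis was possible because the groups share no replicate numbers.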

Other observations

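Levels of Trav6-2, a segment named in the comparisons above, were uneven. Trav6-2 was at 0, 6.18, 10.6, 0 and 6.95 TPM in the sorted CZA+DAV132 anti-PD-1 libraries, where it was at 0 in both repeat-rich ones, and at 1.90, 0, 0.925, 1.03 and 3.53 TPM in the isotype libraries of that arm. In the tumour set Trav6-2 was at 0 in all 10 CZA libraries and at 5.77, 5.04 and 7.78 TPM in T021, T029 and T030 of the anti-PD-1 group with CZA+DAV132. The only other tumour library above 0 was T028 of the CZA+DAV132 isotype group, at 1.17 TPM. The d copies of Trav segments together held 28.03% ± 6.48 (SD, n = 20) of alpha usage in sorted cells and the n copies 22.9% ± 4.79. In the tumour libraries the shares were 27.1% ± 15.5 and 21.9% ± 10.9 (n = 19). Many d and n copies have the same annotated sequence, so the split of usage between d and n copies is not resolved by these values.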
